A study of Mus musculus with 8 samples.

Results

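The Kcn genes encode the pore-forming and auxiliary subunits of potassium channels, and their messages were described here in mouse myocardium after ischaemia and reperfusion, with and without DJ-1 protein given beforehand. Members were all genes whose single annotated symbol starts with Kcn, a subfamily letter code and a number, except Kcnj8 and Kcnj11, and each gene was represented by its probe set of highest mean. This rule uses names only, and it gave 89 of the 19938 genes measured under a single symbol. All 89 Entrez identifiers were found in the RefSeq gene table under the same symbol.

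All 8 samples came from male mice, of a strain that the labels spell CH3, 8 to 10 weeks old and weighing 25 to 30 g. In every animal the left anterior descending (LAD) coronary artery was occluded for 45 minutes and then reopened for 2 hours, and the myocardium was taken for RNA. Mice of the 4 placebo samples received phosphate-buffered saline and those of the 4 DJ-1 samples received recombinant DJ-1 protein, 1 hour before the occlusion in both cases. No sham-operated or untreated heart is among these samples, so both groups share ischaemia and reperfusion, and the levels below describe reperfused tissue only.

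Potassium channels let potassium ions leave the cell along their gradient, which ends the cardiac action potential and holds the resting membrane potential. Voltage-gated channels open on depolarisation, inward rectifiers of the Kcnj group set the resting potential, and tandem-pore channels of the Kcnk group carry leak current. In mouse ventricle, repolarisation rests largely on the fast transient outward current and on rapidly activating delayed rectifier currents, while the channels Kcnq1 and Kcnh2 are best known from the human heart, where their mutations cause long QT syndrome. Auxiliary subunits (Kcne, Kcnip, Kcnab and Kcnmb) form no pore of their own and alter the gating or the surface number of the pores.

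The background level was taken from olfactory receptor genes, whose messages are hardly made in heart muscle. The 95th percentile of the means of 1027 such genes was 4.74 on the log2 scale, and 57 of the 89 Kcn genes had a mean above it, against 13693 of all 19938 genes. A value above this level says that the probe set was brighter than nearly all olfactory receptor probe sets, and a value below it says only that the message could not be told from background on this array. Of the members, 42 were above the level in all 8 arrays, 20 in none, and the other 27 in some arrays only. With the 90th percentile (4.43) as the level 69 members were above it, and with the 99th percentile (5.61) 29 were.

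Among the pore-forming genes, 16 of 25 voltage-gated members (Kcna, Kcnb, Kcnc, Kcnd, Kcnh and Kcnq) were above background. The 10 that were also above the 99th percentile were Kcnd2, Kcnd3, Kcnq1, Kcnh2, Kcna1, Kcna2, Kcna3, Kcna5, Kcna7 and Kcnh4. The other 6 were Kcnq5, Kcnq3, Kcnc4, Kcnh1, Kcnh3 and Kcna6. Not above background were Kcnd1, Kcnc1, Kcnh5, Kcna4, Kcnh8, Kcna10, Kcnc2, Kcnh7 and Kcnb2. Of the 10 silent modifiers (Kcnf, Kcng, Kcns and Kcnv), which conduct only when joined to other voltage-gated subunits, 7 were above background. These were Kcng2, Kcng1 and Kcnv2, all above the 99th percentile, and Kcns3, Kcng4, Kcnf1 and Kcns1.

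Of the 13 inward rectifier genes, 6 were above background: Kcnj2, Kcnj3, Kcnj5, Kcnj12 and Kcnj14, which also passed the 99th percentile, and Kcnj15. The remaining 7 were Kcnj1, Kcnj4, Kcnj6, Kcnj9, Kcnj10, Kcnj13 and Kcnj16. Tandem-pore genes were above background in 11 of 14 cases, with Kcnk3, Kcnk6, Kcnk15 and Kcnk2 above the 99th percentile and Kcnk5, Kcnk10 and Kcnk18 not above background. The SK and Slo families, most of them opened by calcium or sodium inside the cell, had 6 of 8 members above it (Kcnn1, Kcnn2, Kcnn3, Kcnn4, Kcnt1 and Kcnt2). Kcnma1, the pore of the large-conductance calcium-activated channel, and Kcnu1 were not.

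Of the 16 auxiliary subunit genes, 8 were above background: Kcnip2, Kcne1 and Kcnmb1, which passed the 99th percentile, and Kcnip3, Kcnab1, Kcnab2, Kcne4 and Kcnmb3. The other 8 were Kcne1l, Kcne2, Kcne3, Kcnip1, Kcnip4, Kcnab3, Kcnmb2 and Kcnmb4. The name rule also takes in 3 opposite-strand RNAs, Kcnd3os, Kcnmb4os1 and Kcnmb4os2, and all 3 were above background. The 3 members just above the level were Kcnt1 at 4.75, Kcnk9 at 4.76 and Kcnk7 at 4.77, and the 3 just below were Kcnk5 at 4.74, Kcne1l at 4.73 and Kcnmb4 at 4.67. Each of these 6 crossed the level from array to array, being above it in 2 to 5 of the 8 arrays, so neither side is a firm call for them.

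**Figure D1:**
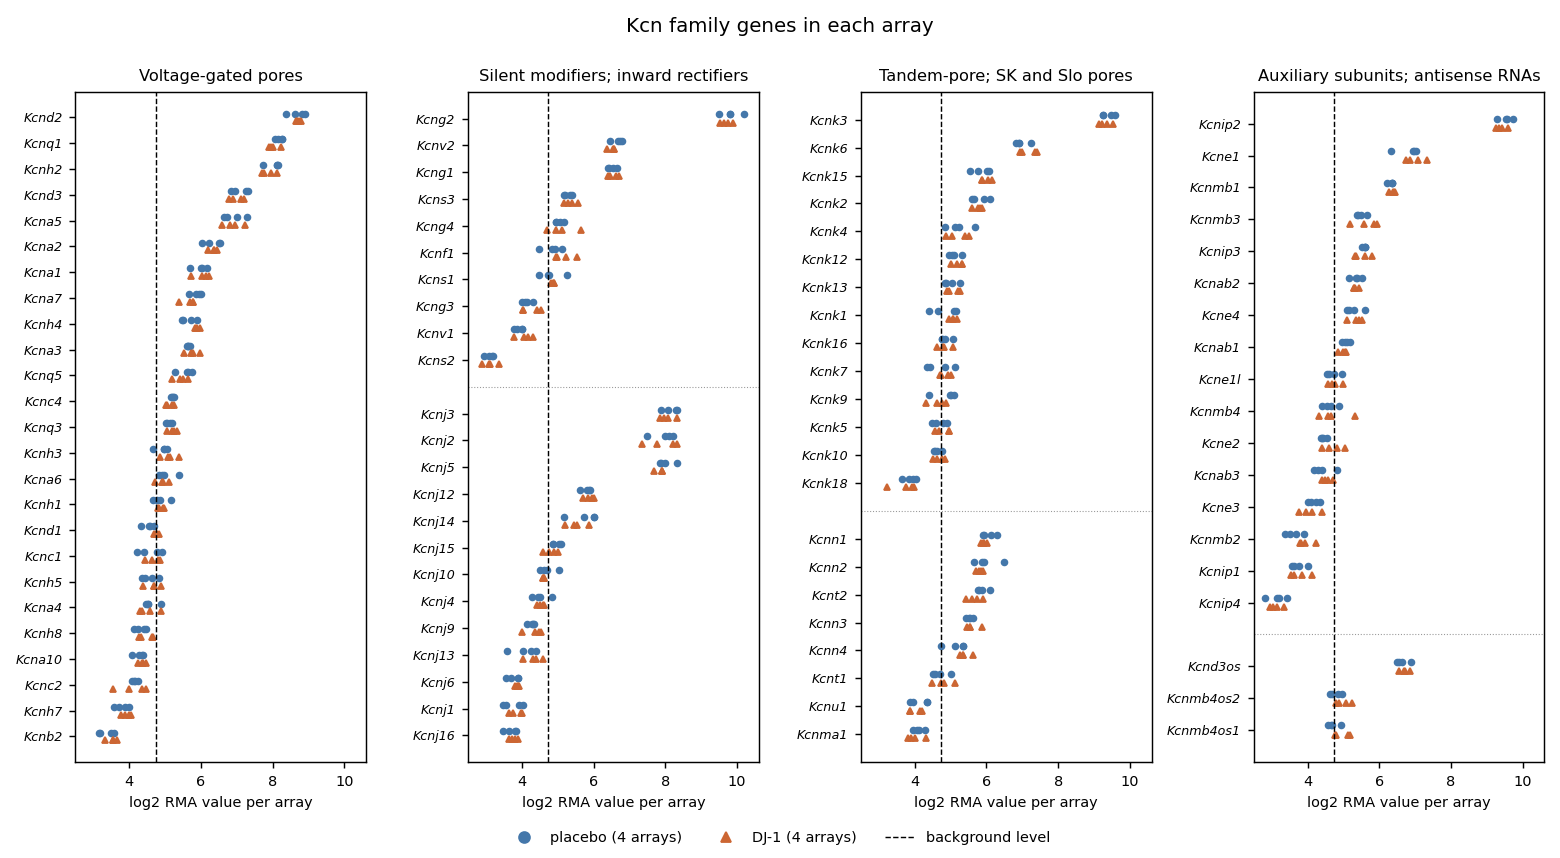
Log2 RMA value (horizontal axis) of each of the 89 Kcn genes in each of the 4 placebo arrays (circles) and 4 DJ-1 arrays (triangles), by kind of subunit, with the background level of 4.74 as a dashed line. Circles and triangles overlap for every gene, and 57 genes have their mean to the right of the line.

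The tissue label was checked on marker genes. All 8 ventricular cardiomyocyte markers were above background, with list means from 13.08 to 13.21 in placebo and 13.05 to 13.19 in DJ-1 hearts. Among 6 atrial markers, 4 were above background (Nppa, Myl4, Stard10 and Myl7), and Sln and Bmp10 were not. Endothelial and fibroblast markers were all above background (6 of 6 each). Over the 19938 genes, correlations between arrays ran from 0.986 to 0.994. The first principal component of these genes set DJ-1 replicates 3 and 4 (19.6 and 23.5) apart from the other 6 arrays, which ranged from -15.0 to 5.31.

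None of the 89 Kcn genes (0) differed between DJ-1 and placebo hearts at an adjusted p of 0.05 in the limma fit over all 19938 genes. The percentage called over all genes was 0 as well. Only 1 member, Kcnmb2, had an unadjusted p under 0.05. Over all genes this share was 5.99%, made up of 3.63% higher and 2.36% lower with DJ-1. Among genes above background it was 4.93%, and there 0 of the 57 members had such a p. The member that passed differed between fits: without moderated variances it was Kcnd1, and with only genes above background tested it was Kcnh4. The groups of arrays overlapped for all 89 members, with 0 lacking overlap, where 3.22% of all genes and 3.26% of those above background had groups that did not overlap. Adjusted p values of the members ran from 0.824 to 0.994. When single arrays were left out, the number of members with an unadjusted p under 0.05 ran from 1 to 6 and the number without overlap from 0 to 6, both highest without DJ-1 replicate 1, where 6.74% of members and 7.1% of all genes had such a p and 6.74% and 6.81% lacked overlap, and no member passed an adjusted p of 0.05 in any of these fits.

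Of the 57 members above background, 30 averaged higher and 27 lower with DJ-1, with a median difference of 0.023 and a range from -0.23 (Kcnk9) to 0.35 (Kcnf1). Among all genes above background 45.4% averaged higher. Centring the array medians shifts every gene by the same -0.042, which gives 27 members higher and 30 lower, and 32.8% of all genes above background higher.

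The size of difference that these arrays allow was bounded for each gene by its 95% confidence interval. For all 57 members above background, the interval lay inside a 2-fold change in either direction, which held for 99.1% of all genes above background. For 54 of the 57 it lay inside a 1.5-fold change, which held for 93.5% of all genes above background. The widest bounds were a fold of 0.642 for Kcnj14 and 1.62 for Kcnf1. These bounds do not show that the levels were alike, and the median standard error of the 57 members, 0.12 on the log2 scale, leaves smaller changes unresolved.

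**Figure D2:**
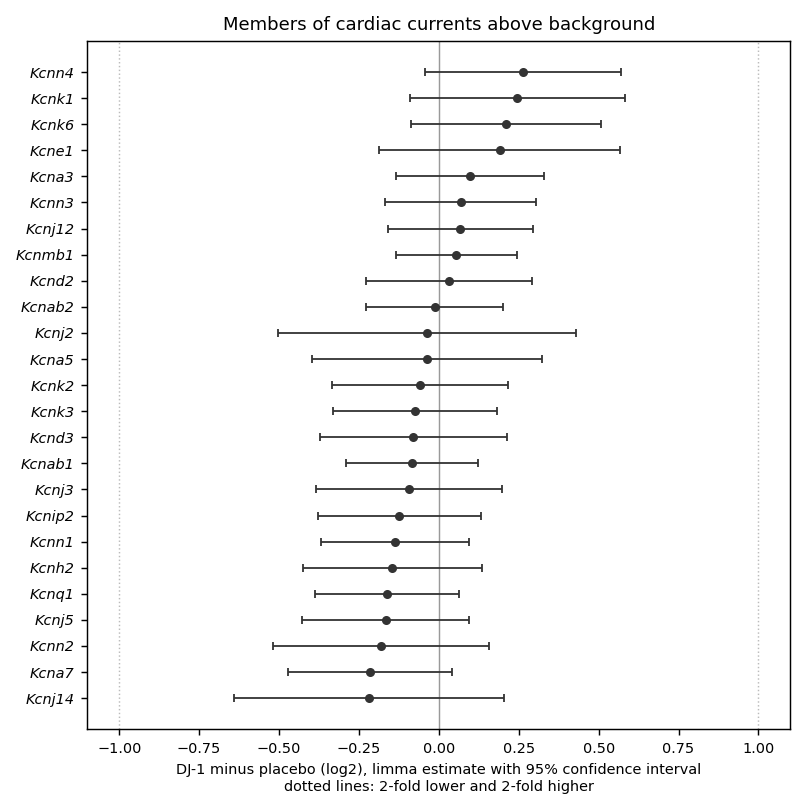
Fitted log2 difference, DJ-1 less placebo (horizontal axis), with its 95% confidence interval from limma, for the 25 members of cardiac currents above background. Every interval includes 0 and lies between the dotted lines at a 2-fold change.

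Of 30 genes listed for known cardiac, smooth muscle and leukocyte currents, 29 were measured under a single symbol and 25 were above background. Among these 25, 9 averaged higher and 16 lower with DJ-1, and the median difference was -0.060, against -0.014 over all genes above background. The share higher was 36.0%, against 45.4% of all genes above background. Of all genes above the 99th percentile, 39.6% averaged higher, with a median of -0.030. These comparisons do not match genes by level. The 25 genes are taken below by the current they carry. For 24 of the 25, leaving out some single array moved the difference by over 1.5 times, the exception being Kcnq1. Values without an array are given below for only some of these genes. Each value is a log2 RMA value, listed for placebo replicates 1 to 4 and then for DJ-1 replicates 1 to 4.

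The transient outward current, which produces the early fast repolarisation, is formed by the Kcnd2 and Kcnd3 pores with the calcium-binding subunit Kcnip2. Kcnd2 was at 8.83, 8.62, 8.38 and 8.91 across placebo arrays and 8.74, 8.65, 8.69 and 8.78 across DJ-1 arrays. The DJ-1 values lay inside the placebo range, and the difference was 0.032 (SE 0.12, 95% confidence interval -0.23 to 0.29). Kcnd3 was at 7.31, 6.84, 6.95 and 7.25 across placebo arrays and 6.90, 7.12, 6.80 and 7.21 across DJ-1 arrays, again with interleaved groups. Its difference, -0.080 (SE 0.13), ran from -0.16 without placebo replicate 2 to -0.0060 without placebo replicate 1. Kcnip2 stood at 9.71, 9.28, 9.56 and 9.53 across placebo arrays and 9.24, 9.33, 9.60 and 9.42 across DJ-1 arrays. Placebo replicate 1 was the highest and DJ-1 replicate 1 the lowest of its 8 values, and the difference was -0.12 (SE 0.12, 95% confidence interval -0.38 to 0.13). Kcna4, the pore of the slow transient outward current, was not above background, with a placebo mean of 4.61 ± 0.20 (SD, n = 4) against 4.53 ± 0.27 (SD, n = 4) for DJ-1. The opposite-strand RNA Kcnd3os had a difference of 0.069 (SE 0.11), and whether its probe set shares sequence with that of Kcnd3 was not examined.

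The ultrarapid delayed rectifier pore Kcna5 was at 7.02, 6.74, 7.29 and 6.66 across placebo arrays and 6.94, 7.23, 6.80 and 6.58 across DJ-1 arrays, a difference of -0.037 (SE 0.16, 95% confidence interval -0.40 to 0.32). Replicate 4 was its lowest value in each group. Kcna7, a pore known from skeletal muscle and heart, was at 5.96, 5.68, 5.87 and 6.01 across placebo arrays and 5.39, 5.79, 5.71 and 5.79 across DJ-1 arrays. DJ-1 replicate 1 was below all other arrays. DJ-1 replicates 2, 3 and 4 lay above placebo replicate 2 and below the other placebo arrays. The difference of Kcna7, -0.21 (SE 0.12), was among the more negative of the 25 and did not pass (adjusted p = 0.824, limma). Without placebo replicate 2 it was -0.28, did not pass either, and the groups did not overlap. In that setting 6.37% of all genes and 2.25% of members lacked overlap.

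Kcnq1, the pore of the slow delayed rectifier, was at 8.27, 8.07, 8.25 and 8.15 across placebo arrays and 8.01, 7.94, 7.89 and 8.24 across DJ-1 arrays. Only DJ-1 replicate 4 reached the placebo values, and the difference was -0.16 (SE 0.10, 95% confidence interval -0.39 to 0.062) (adjusted p = 0.832). Without that array the groups did not overlap, which follows from leaving out the only array that reached the placebo values. In that setting 5.07% of all genes and 1.12% of members lacked overlap. The difference of -0.24 without it did not pass the adjusted p either. Its partner Kcne1 was at 6.32, 6.98, 6.95 and 7.01 across placebo arrays and 7.07, 6.75, 6.86 and 7.34 across DJ-1 arrays, with placebo replicate 1 well below the rest. The difference, 0.19 (SE 0.17, 95% confidence interval -0.19 to 0.57), became 0.026 without that array. Kcnh2, the pore of the rapid delayed rectifier, was at 8.11, 8.16, 7.73 and 8.13 across placebo arrays and 7.95, 7.77, 7.71 and 8.13 across DJ-1 arrays, where replicate 3 was the lowest in both groups. Its difference was -0.15 (SE 0.13), and -0.25 without placebo replicate 3. Kcne2, another small subunit of this kind, was not above background and ranged from 4.37 to 4.54 across placebo arrays and from 4.39 to 5.06 across DJ-1 arrays. Only DJ-1 replicates 3 and 4 passed the background level, and without those arrays its difference of 0.29 (SE 0.13) became 0.060.

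Among the inward rectifiers, Kcnj2 carries the main resting potassium current of ventricular muscle. It was at 8.22, 8.10, 7.49 and 7.99 across placebo arrays and 8.20, 8.32, 7.35 and 7.78 across DJ-1 arrays. It had the largest spread within groups of the 57 members above background, 0.38 against a median of 0.18, and replicate 3 was the lowest in both groups. The difference was -0.036 (SE 0.21, 95% confidence interval -0.50 to 0.43), and it was 0.31 without DJ-1 replicates 3 and 4. Kcnj12, which joins Kcnj2 in this current, was at 5.90, 5.62, 5.82 and 5.88 across placebo arrays and 5.70, 5.86, 5.996 and 5.95 across DJ-1 arrays, a difference of 0.067 (SE 0.10). Kcnj14 was at 6.02, 6.02, 5.74 and 5.17 across placebo arrays and 5.87, 5.21, 5.46 and 5.53 across DJ-1 arrays. Placebo replicate 4 and DJ-1 replicate 2 were low and the other arrays spread above them, so that its difference of -0.22 (SE 0.19, 95% confidence interval -0.64 to 0.20) had the lowest confidence bound of all members. It was -0.41 without placebo replicate 4 and -0.12 without DJ-1 replicate 2. Kcnj4 was not above background (mean 4.53).

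Kcnj3 and Kcnj5 form the channel that acetylcholine opens through G proteins, best known in atrium and pacemaker tissue. Kcnj3 was at 8.32, 8.07, 7.88 and 8.30 across placebo arrays and 8.07, 7.96, 7.84 and 8.32 across DJ-1 arrays, a difference of -0.093 (SE 0.13). Kcnj5 was at 8.000, 7.86, 7.85 and 8.32 across placebo arrays and 7.68, 7.90, 7.90 and 7.89 across DJ-1 arrays, a difference of -0.17 (SE 0.12, 95% confidence interval -0.43 to 0.094), with placebo replicate 4 the highest and DJ-1 replicate 1 the lowest. Without placebo replicate 4 that difference was -0.062, and without DJ-1 replicate 1 it was -0.11. Of 6 atrial markers, 2 stood out in a single array: Myl7 was at 7.08 in placebo replicate 2 and between 4.68 and 5.22 in the other 7 arrays, and Myl4 was at 10.40 there against 8.59 to 9.01. The other 4 did not: in that array Nppa was at 11.39, Stard10 at 8.04, Sln at 4.12 and Bmp10 at 3.37, all inside the range of the other arrays. Neither Kcnj3 nor Kcnj5 was high in placebo replicate 2. In whole tissue, fewer cells of a type and less RNA per cell cannot be told apart.

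Among tandem-pore genes, Kcnk3 (TASK-1), an acid-sensitive leak channel, was at 9.57, 9.25, 9.25 and 9.46 across placebo arrays and 9.23, 9.12, 9.36 and 9.52 across DJ-1 arrays, a difference of -0.075 (SE 0.12, 95% confidence interval -0.33 to 0.18). Kcnk2 (TREK-1), which responds to membrane stretch, was at 5.64, 5.94, 6.10 and 5.60 across placebo arrays and 5.87, 5.82, 5.75 and 5.60 across DJ-1 arrays, a difference of -0.060 (SE 0.13). The groups of both genes overlapped. For Kcnk3 the difference was -0.011 without placebo replicate 1, -0.15 without DJ-1 replicate 4 and -0.21, with no overlap, without DJ-1 replicates 3 and 4. Those arrays held its highest DJ-1 values, and without them 13.1% of all genes and 4.49% of members lacked overlap. Kcnk6 was at 6.82, 7.23, 6.90 and 6.91 across placebo arrays and 7.003, 6.92, 7.40 and 7.36 across DJ-1 arrays, where DJ-1 replicates 3 and 4 were the highest of all arrays. Its difference, 0.21 (SE 0.14, 95% confidence interval -0.088 to 0.51), became -0.0011 without those arrays. Kcnk1 was at 5.14, 4.66, 5.09 and 4.41 across placebo arrays and 5.07, 5.08, 4.95 and 5.19 across DJ-1 arrays, and its placebo values lay on both sides of the background level. The difference for Kcnk1 was 0.25 (SE 0.15), with an adjusted p of 0.83, and 0.11 without placebo replicate 4.

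The small-conductance calcium-activated pores Kcnn1, Kcnn2 and Kcnn3 were all above background. Kcnn1 was at 6.12, 5.90, 6.29 and 5.93 across placebo arrays and 5.86, 5.92, 6.01 and 5.90 across DJ-1 arrays, a difference of -0.14 (SE 0.11). Kcnn2 was at 5.92, 5.65, 5.88 and 6.49 across placebo arrays and 5.70, 5.90, 5.84 and 5.78 across DJ-1 arrays. Placebo replicate 4 stood above the other 7 arrays, and the difference, -0.18 (SE 0.15, 95% confidence interval -0.52 to 0.16), became -0.014 without it. Kcnn3 was at 5.51, 5.54, 5.63 and 5.43 across placebo arrays and 5.44, 5.53, 5.87 and 5.55 across DJ-1 arrays, a difference of 0.068 (SE 0.11). Kcnma1 was not above background on either of its 2 probe sets, whose means were 4.05 and 3.42, whereas Kcnmb1, the smooth muscle subunit of the same channel, was. Kcnmb1 was at 6.36, 6.36, 6.22 and 6.34 across placebo arrays and 6.44, 6.28, 6.38 and 6.41 across DJ-1 arrays, the narrowest spread within groups among the 57 members (0.069), and its difference was 0.055 (SE 0.087, 95% confidence interval -0.14 to 0.25). Without placebo replicate 3 that difference was 0.021. The 8 smooth muscle and pericyte markers were all above background, with list means from 8.34 to 8.50 in placebo and 8.29 to 8.51 in DJ-1 hearts, and their part in the level of Kcnmb1 was not tested.

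The cytoplasmic beta subunits of voltage-gated channels, Kcnab1 and Kcnab2, differed by -0.084 (SE 0.094) and -0.013 (SE 0.098). Kcnab1 was at 5.03, 5.10, 4.95 and 5.20 across placebo arrays and 4.86, 5.06, 4.98 and 5.05 across DJ-1 arrays. Kcnab2 was at 5.37, 5.35, 5.51 and 5.16 across placebo arrays and 5.32, 5.31, 5.29 and 5.43 across DJ-1 arrays, so that both genes had interleaved groups.

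Kcna3 and Kcnn4 are channels of lymphocytes, macrophages and other white blood cells, and Kcnn4 also occurs in red cells and endothelium. Kcna3 was at 5.71, 5.63, 5.64 and 5.64 across placebo arrays and 5.72, 5.52, 5.78 and 5.98 across DJ-1 arrays, a difference of 0.098 (SE 0.11). Kcnn4 was at 5.33, 5.33, 5.13 and 4.74 across placebo arrays and 5.26, 5.36, 5.61 and 5.36 across DJ-1 arrays, a difference of 0.26 (SE 0.14, 95% confidence interval -0.044 to 0.57). Placebo replicate 4 was lowest and DJ-1 replicate 3 highest, the other 6 arrays lay between 5.13 and 5.36, and the difference was 0.13 without placebo replicate 4. All 8 neutrophil markers averaged higher with DJ-1, with list means from 4.87 to 7.77 in placebo and from 6.10 to 8.12 in DJ-1 hearts. Of the 8, 1 (Lcn2) had an unadjusted p under 0.05 in limma, against 5.99% of all genes, and 0 passed an adjusted p of 0.05. Macrophage markers had list means from 7.08 to 7.53 and from 7.11 to 7.49, and lymphocyte markers, of which Ms4a1 was not above background, had list means from 4.92 to 5.10 and from 4.69 to 4.98. Fewer markers averaged higher with DJ-1 in other lists: 0 of 6 fibroblast, 1 of 6 endothelial and 2 of 8 smooth muscle and pericyte markers. The counts were 2 of 8 for ventricular, 3 of 6 for atrial, 2 of 6 for macrophage and 1 of 5 for lymphocyte markers. An unadjusted p under 0.05 was found for 2 fibroblast markers. It was found for 1 marker each of the endothelial, lymphocyte, and smooth muscle and pericyte lists. Placebo replicate 4 was lowest both for Kcnn4 and for the neutrophil markers, while the highest array was DJ-1 replicate 3 for Kcnn4 and DJ-1 replicate 2 for the neutrophil markers. The part of these cells in Kcna3 and Kcnn4 was not tested.

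Kcnmb2, a subunit of the large-conductance calcium-activated channel, was the member of smallest p and was below background in all 8 arrays. It was at 3.50, 3.37, 3.68 and 3.91 across placebo arrays and 3.78, 3.93, 3.80 and 4.22 across DJ-1 arrays. The difference was 0.32 (SE 0.14, 95% confidence interval 0.013 to 0.62), with an unadjusted p of 0.0422 and an adjusted p of 0.824, and placebo replicate 4 overlapped the DJ-1 values. The next smallest were those of Kcnh4, Kcnd1, Kcnf1 and Kcne2, with unadjusted p from 0.0501 to 0.0549, chosen here after their values were seen. All of these averaged higher with DJ-1. Kcnf1 had the largest difference of the family, 0.35 (SE 0.16), with DJ-1 replicate 4 at 5.54 and placebo replicate 3 at 4.47 as its extremes.

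The share of members that averaged higher with DJ-1 differed with the level of the probe set, and so did the share over all genes. Of the 32 members not above background, 24 averaged higher with DJ-1 (75.0%), against 68.0% of all genes not above background. Of the 29 members above the 99th percentile, 12 did (41.4%), against 39.6% of all genes above it. The median difference was 0.086 for members not above background, 0.023 for the 57 above background and -0.060 for the 29. For all genes at the same levels it was 0.069, -0.014 and -0.030.

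**Figure D3:**
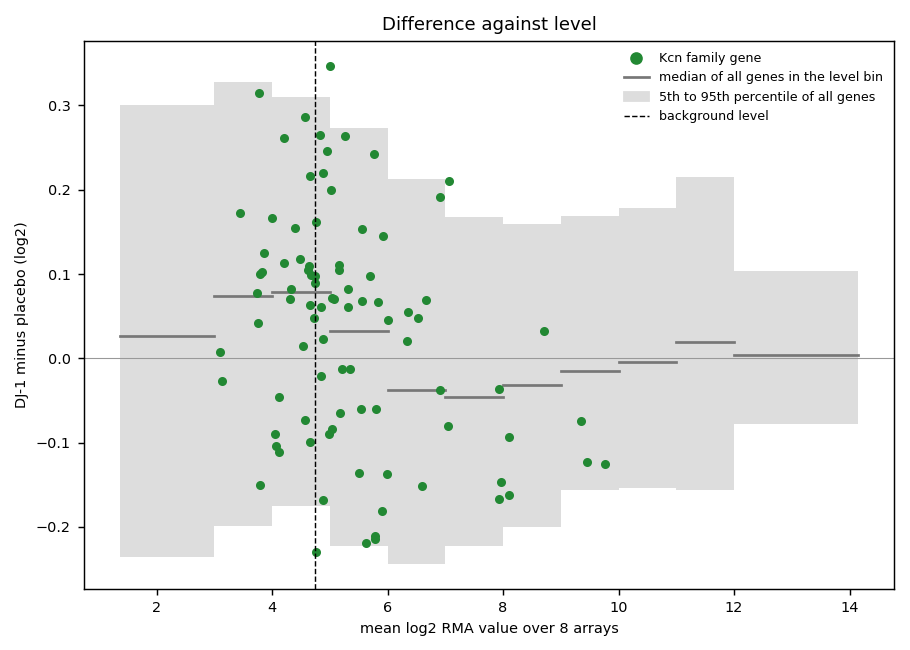
Difference DJ-1 minus placebo (vertical axis, log2) against the mean log2 RMA value over 8 arrays (horizontal axis) for the 89 Kcn genes (points), with the median and the 5th to 95th percentile of all genes in each level bin (grey). Members left of the dashed background line lie above 0 in 24 of 32 cases.

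The arrays within a group differed in this respect. Relative to each gene's mean over 8 arrays, the members not above background had a median deviation of 0.13 in DJ-1 replicate 3 and 0.18 in DJ-1 replicate 4, against -0.037 and -0.084 in DJ-1 replicates 1 and 2. In placebo replicates 1 to 4 it was -0.010, -0.13, 0.088 and -0.071. All genes not above background deviated by 0.074 and 0.11 in DJ-1 replicates 3 and 4 and between -0.062 and -0.0091 in the other 6 arrays. Members above background deviated most in DJ-1 replicate 4 (0.11), placebo replicate 2 (-0.087) and placebo replicate 3 (0.071), where all genes above background deviated by between -0.019 and 0.017 in every array. Without DJ-1 replicates 3 and 4, a setting that keeps all placebo arrays, 13 of 33 members not above background and 21 of 56 above it averaged higher with DJ-1 (39.4% and 37.5%), against 51.1% and 49.7% of all genes. These are the arrays in which the low members were high, so that count restates the deviations above. With cyclic loess normalization, 18 of 32 and 29 of 57 averaged higher (56.2% and 50.9%), against 53.3% and 49.1% of all genes.

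**Figure D4:**
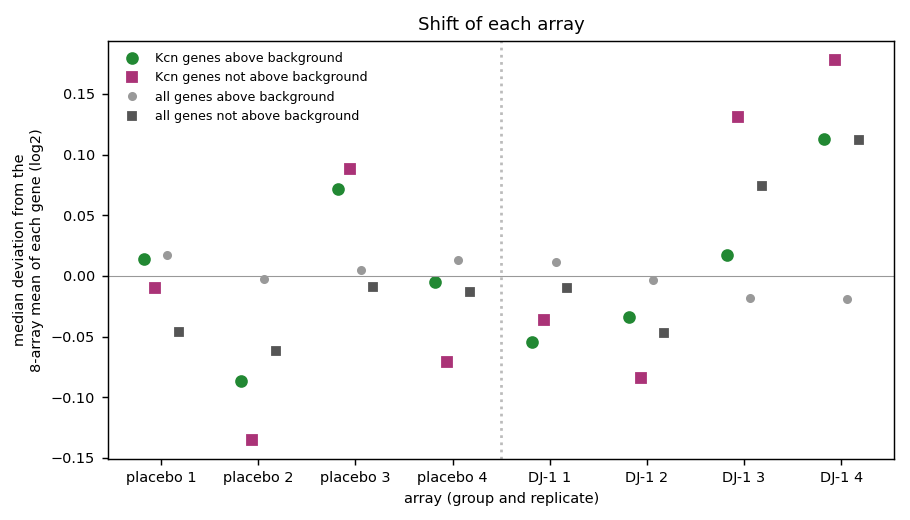
Median deviation from the 8-array mean of each gene (vertical axis, log2) in each array, for Kcn genes above and not above background and for all genes at the same levels. Kcn genes not above background are highest in DJ-1 replicates 3 and 4 (0.13 and 0.18) and lowest in placebo replicate 2 (-0.13).

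Genes outside the family that act with these channels were counted in lists chosen by name. Of 21 measured scaffolds, partners and regulators, 19 were above background, 7 averaged higher and 14 lower with DJ-1, and 0 passed an adjusted p of 0.05 or had an unadjusted p under 0.05 in limma. Dpp6 and Dpp10, transmembrane partners of Kcnd pores, were not above background. The list also holds Irx3 and Irx5, transcription factors that shape the transmural gradient of Kcnd2, Akap9, which anchors protein kinase A to Kcnq1, and the G protein subunit Gnb1. Of 10 measured potassium pump subunits and cotransporters, 9 were above background, 5 averaged higher and 5 lower, and 0 passed or had an unadjusted p under 0.05. Only Atp12a, a pump subunit of epithelia, was not above background.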

How the data were processed

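The authors deposited log2 expression values of 35556 probe sets on 8 Affymetrix whole-transcript arrays, which the submitters' processing notes name as RMA output (robust multi-array averages). For software, version and genome build, the sources used here give nothing. Array RNA had an integrity number above 7, per the labels. Genes were named from the platform annotation: 21789 probe sets have 1 symbol, 1621 several and 12146 none, and only the first kind was used, which leaves 19938 genes. DJ-1 and placebo were compared with two-sided tests from limma 3.58.1 under R 4.3.3 (lmFit, then eBayes) on the deposited log2 values, with no covariate or further normalization and with Benjamini-Hochberg adjustment over all genes, a fit checked on simulated data. SE and 95% confidence intervals come from this fit, and their precision is limited by the number of arrays. The labels number the samples within a group and do not say whether each is 1 animal, so p-values measure the spread between these samples. Sample codes run consecutively through placebo and then DJ-1, so any order of processing and treatment cannot be told apart.

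Members, lists, tests and alternatives were chosen with earlier results of these data known. Named were all members of listed cardiac, smooth muscle and leukocyte currents, members with an unadjusted p under 0.05 or without overlap, and the 3 on each side of the background level. Some listed genes are not reported here. Alternatives covered normalization, the choice of probe set, the variance model, the background level and filter, a replicate block and leaving out arrays. Levels were set only against the background level, since the brightness of different probe sets is not comparable.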

Additional observations from a re-analysis of the deposited data

Results flagged for a closer look

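In 5 cases among 72 groups of 4 arrays (36 named genes in both groups), the extreme array was farther from the rest than a Dixon test at the 95% level allows for 4 values; chance gives about 5% of groups. Kcna4 was at 4.90 in placebo replicate 4, above the next value of 4.53 and across the background level. Kcne1 was at 6.32 in placebo replicate 1, below the next value of 6.95. Kcnh2 was at 7.73 in placebo replicate 3, below 8.11. Kcnmb1 was at 6.22 in placebo replicate 3, below 6.34. Kcnj5 was at 7.68 in DJ-1 replicate 1, below 7.89.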

How the results depend on the processing

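The number of members past an adjusted p of 0.05 was 0 in the limma fit and in each of the 17 alternative fits. The smallest adjusted p of a member ran from 0.651 to 0.996 over these fits. The 57 members above background became 54 to 58 when single arrays were left out and 29 with the 99th percentile as background, where the median difference moved from 0.023 to -0.060; leaving out single arrays gave medians of 0.00084 to 0.056.

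Members of unadjusted p under 0.05 numbered 1 in the limma fit, a count that was 0 with quantile normalization and with an intensity trend, 3 with the mean of probe sets, and 2 without DJ-1 replicates 3 and 4. It ran from 1 to 6 with single arrays left out: 6 without DJ-1 replicate 1 (7.1% of all genes), 4 without DJ-1 replicate 2 (7.42%), 3 without placebo replicate 1, 3 or 4 (5.64%, 6.94% and 4.18%), and 2 without DJ-1 replicate 3 (4.68%). Over all genes these shares were 5.34% with quantile normalization, 5.73% with an intensity trend, 5.97% with the mean of probe sets and 4.57% without DJ-1 replicates 3 and 4. Groups that did not overlap, 0 in the deposited values, numbered 1 with quantile normalization, 1 with cyclic loess, 2 with array medians centred and 4 without DJ-1 replicates 3 and 4, and 0 to 6 with single arrays left out (6 without DJ-1 replicate 1, 5 without placebo replicate 3). Over all genes the shares were 3.15%, 3.18%, 3.93% and 13.1%, and 5.07% to 7.54% with single arrays left out. With the replicate number as a block the unadjusted count was 2 of 89 (2.25%, against 6.53% of all genes) and 0 members passed the adjusted p. Whether the numbers pair the samples is not known. Same-numbered arrays had correlations of deviations of -0.048, 0.23, 0.24 and 0.014, and not every array correlated best with its own number. With 4 arrays per group these correlations cannot decide it.

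Some differences changed sign, among them that of Kcnk6 (0.21), and the cause was not tested. Without DJ-1 replicates 3 and 4 the values were 0.16 for Kcna5, 0.31 for Kcnj2, -0.030 for Kcnj12, -0.064 for Kcnj4, 0.028 for Kcnk2, -0.0011 for Kcnk6, -0.040 for Kcnn3, -0.035 for Kcna3, -0.17 for Kcnmb4, -0.079 for Kcne1l, -0.082 for Kcnk5 and -0.045 for Kcnt1. Centring array medians shifts all genes by the same -0.042, which put Kcnd2 at -0.0099. Kcnj4 was at -0.040, -0.028 and -0.057 with quantile normalization, array medians centred and cyclic loess. Kcne1l was at -0.00092 with quantile normalization and -0.019 with cyclic loess, and Kcnj2 at 0.0056 with cyclic loess. With single arrays left out, signs changed within -0.068 to 0.11 for Kcnd2, -0.19 to 0.025 for Kcna4, -0.15 to 0.084 for Kcna5, -0.19 to 0.15 for Kcnj2, -0.061 to 0.12 for Kcnj4, -0.13 to 0.033 for Kcnk2, -0.021 to 0.12 for Kcnn3, -0.076 to 0.040 for Kcnab2, -0.10 to 0.23 for Kcnmb4, -0.031 to 0.13 for Kcne1l and -0.015 to 0.20 for Kcnt1.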

Other observations

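In the RefSeq gene order of GRCm38.p6, 10 pairs of these members are direct neighbours among protein-coding genes. In 6 pairs, 1 of the neighbours was above background and the other was not. On chromosome 11, Kcnj2 was above background and its neighbour Kcnj16 was not, and the same held for Kcnmb1 and its neighbour Kcnip1. On chromosome 9, Kcnj5 was above it and Kcnj1, the renal outer medullary channel, was not. In the Kcna cluster of chromosome 6, Kcna5, Kcna1 and Kcna6 were all above background. In that of chromosome 3, Kcna3 and Kcna2 were above it, while Kcna10 was not. Kcnj15 and Kcnk16 were above background beside Kcnj6 and Kcnk5, which were not, and in the pair of Kcnj9 and Kcnj10 neither was. Kcnk5 was just below the level (4.74) and above it in 4 of the 8 arrays, so its pair is not a firm call. How often other pairs of members differ in this way was not counted. These are positions and calls against background only, with no test.

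Only 3 members had more than 1 probe set. Kcna2 had one of mean 6.33 (difference 0.020) and one of mean 4.52 (0.19), on opposite sides of the background level. The probe sets of Kcnh8 had means of 4.40 and 3.90 and differences of 0.15 and 0.15. The probe set of Kcnma1 with a mean of 3.42 had a difference of -0.41, against -0.090 for the one used here. Which transcripts each probe set covers was not examined.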
